A study of Mus musculus with 12 samples.

Results

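The unfolded protein response and the integrated stress response are linked programs that adjust protein folding and protein synthesis in stressed cells. A set of 38 mouse genes of these programs was followed in retinal RNA-seq libraries. The genes were chosen by name for their known place in the programs and with earlier results of these data known. Their symbols were matched to the identifiers of the gene tables. The tables held 54532 gene identifiers, of which 18299 had enough counts to be tested, and 38 of the 38 chosen genes were among these. By role, 6 were stress sensors or transcription factors, 12 were targets of the transcription factor ATF4, 14 were chaperones and folding enzymes of the endoplasmic reticulum (ER), and 6 served ER-associated degradation (ERAD).

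The data came from retinas of wild type C57BL/6 mice aged 13 weeks, in 4 groups with 3 libraries each. SHAM mice were the sham controls. MOG mice had been immunized with the myelin oligodendrocyte glycoprotein peptide MOG35-55, which induces experimental autoimmune encephalomyelitis (EAE) and with it optic neuritis. GB20 mice were immunized in the same way and then needled at the acupoint GB20, and GV16 mice were immunized and needled at the control site GV16. According to the study's methods the mice were females, the peptide was given in complete Freund's adjuvant with pertussis toxin, and needling was done under xylazine and ketamine. Whether SHAM mice received adjuvant or toxin, whether un-needled mice were anesthetized, and whether a library pooled the retinas of several mice could not be learned from the labels or methods. The methods name 2 or 3 mice per group and 3 repeats of the experiments, and whether libraries of the same number came from the same repeat is not stated. The p-values therefore measure the spread between these libraries. The total count per library was between 16637268 and 18033426 in SHAM, between 16122738 and 18067710 in MOG, between 16338917 and 19194280 in GB20, and between 15860278 and 16198995 in GV16.

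Marker genes were read before the stress genes. Some libraries stood apart. The 5 lens crystallin and membrane genes summed to 10.5 CPM (counts scaled for the size of each library) in SHAM 2 and 5.84 CPM in GB20 2 and to at most 0.964 CPM in any other library. The 4 oligodendrocyte genes summed to 73.7 CPM in MOG 2 and to between 39.2 and 48.7 CPM in the other libraries. SHAM 2 also had the steepest trend with gene length, with log2 CPM changing by -0.051 for each doubling of length, against -0.036 to 0.031 in the other libraries. Values without these 3 libraries together, a choice made after these levels had been seen, are given for Nupr1, Eif2ak2, 11 other genes, the 2 branches and the shared variation of the lists.

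As background, unfolded protein in the ER is sensed by 3 membrane proteins. PERK, encoded by Eif2ak3, phosphorylates the translation factor eIF2, which lowers protein synthesis in general and favors translation of ATF4. GCN2, encoded by Eif2ak4, does the same during amino acid shortage, and PKR, encoded by Eif2ak2, does so with double-stranded RNA, which is why this branch is called the integrated stress response. IRE1, encoded by Ern1, splices the Xbp1 mRNA, and ATF6 is cleaved into a transcription factor, and both raise ER chaperones and ERAD genes. In the retina, sustained PERK signaling with its downstream factor CHOP, encoded by Ddit3, has been linked to loss of retinal ganglion cells after optic nerve damage. Splicing of Xbp1 and phosphorylation of eIF2 are not seen in gene counts.

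The stress genes were well expressed in the control retina. On the FPKM scale, which corrects for gene length, the median over the 38 genes in SHAM was 12.1 FPKM, against 4.43 FPKM over the 18299 genes tested, and 32 of the 38 lay above that median. Atf4 had the highest level at 115 ± 12.2 FPKM (SD, n = 3). It was followed by the lectin chaperone Calr at 93.0 ± 8.02 FPKM, by Ddit4, an inhibitor of mTOR signaling, at 87.1 ± 12.1 FPKM, and by the ER HSP90 protein Hsp90b1 at 70.2 ± 5.02 FPKM. The spreads of Calr and Ddit4 across the libraries overlapped, as did those of Ddit4 and Hsp90b1. These genes were read in the same 3 libraries, and their order within a library was not tested. Hspa5, which encodes the main ER chaperone BiP, stood at 48.8 ± 3.95 FPKM. The lowest levels were those of the cystine transporter gene Slc7a11 at 0.347 ± 0.041 FPKM and the ERAD gene Derl3 at 0.743 ± 0.091 FPKM. Ddit3 was measurable in every library at 23.6 ± 4.05 FPKM in SHAM.

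**Figure D1:**
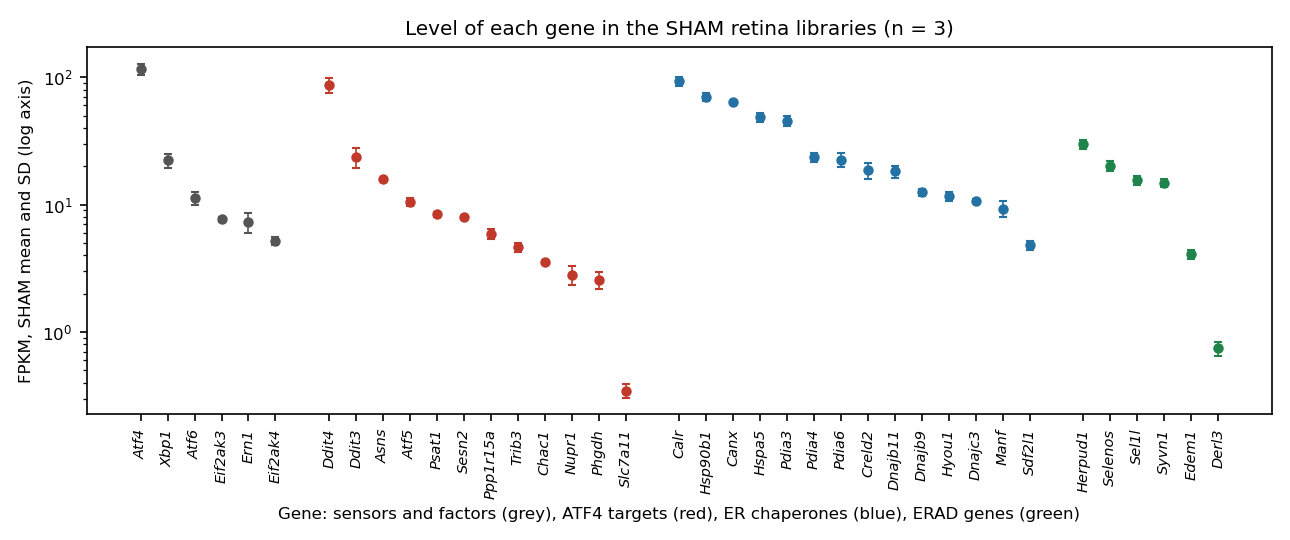
Level of each of the 38 genes in the SHAM libraries in FPKM on a log axis, with points at the mean and bars at the SD (n = 3), colored by role. Levels reach from 0.347 FPKM for Slc7a11 to 115 FPKM for Atf4, and most ER chaperones lie above most ATF4 targets.

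The 2 branches differ in the short sequences of their promoters, so promoters are shown for BiP and for the genes of each branch with the highest and the lowest fold change among those whose groups did not overlap in the MOG vs SHAM comparison described next. RefSeq promoter windows on GRCm38.p6, from 250 bases before a RefSeq start to 50 bases after it, were held for 35 of the 38 genes, and Atf6, Hyou1 and Manf had no entry. The first listed start was used for the 3 genes with more than 1. The RefSeq start of Nupr1 lies inside the longer GENCODE span of the gene given below. Both strands were searched for the ER stress response element (CCAAT, any 9 bases, CCACG), its short form II (ATTGG, any 1 base, CCACG), the core of the UPR element (TGACGTGG) and the C/EBP-ATF response element (TGATGNAA), and capitals mark the matches. The first is the classical element of ATF6 and XBP1 targets and the last that of ATF4 targets.
Hspa5, chr2:34771840-34772139, plus strand: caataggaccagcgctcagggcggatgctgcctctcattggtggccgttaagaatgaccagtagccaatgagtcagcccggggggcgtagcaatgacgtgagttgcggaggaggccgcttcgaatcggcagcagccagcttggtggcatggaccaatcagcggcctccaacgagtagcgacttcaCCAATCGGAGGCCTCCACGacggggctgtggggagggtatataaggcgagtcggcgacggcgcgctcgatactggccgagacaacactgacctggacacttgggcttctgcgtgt
Dnajc3, chr14:118937682-118937981, plus strand: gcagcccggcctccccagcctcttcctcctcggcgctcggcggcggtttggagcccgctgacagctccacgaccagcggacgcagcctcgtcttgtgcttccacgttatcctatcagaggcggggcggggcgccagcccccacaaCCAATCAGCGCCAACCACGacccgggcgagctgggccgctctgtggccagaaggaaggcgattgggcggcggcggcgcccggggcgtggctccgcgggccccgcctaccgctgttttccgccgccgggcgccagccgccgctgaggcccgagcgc
Herpud1, chr8:94386179-94386478, plus strand: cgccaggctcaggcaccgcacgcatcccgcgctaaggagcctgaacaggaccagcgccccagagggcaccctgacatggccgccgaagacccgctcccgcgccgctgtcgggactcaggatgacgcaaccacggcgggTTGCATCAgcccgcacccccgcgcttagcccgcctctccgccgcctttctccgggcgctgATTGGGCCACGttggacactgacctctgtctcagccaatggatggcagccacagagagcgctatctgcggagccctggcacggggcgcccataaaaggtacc
Nupr1, chr7:126625421-126625720, minus strand: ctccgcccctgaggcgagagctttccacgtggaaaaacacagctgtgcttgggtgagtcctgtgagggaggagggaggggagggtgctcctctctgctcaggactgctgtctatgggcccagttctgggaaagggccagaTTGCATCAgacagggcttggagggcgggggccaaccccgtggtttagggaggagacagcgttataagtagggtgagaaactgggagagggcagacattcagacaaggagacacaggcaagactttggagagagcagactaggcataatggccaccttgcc
Chac1, chr2:119350992-119351291, plus strand: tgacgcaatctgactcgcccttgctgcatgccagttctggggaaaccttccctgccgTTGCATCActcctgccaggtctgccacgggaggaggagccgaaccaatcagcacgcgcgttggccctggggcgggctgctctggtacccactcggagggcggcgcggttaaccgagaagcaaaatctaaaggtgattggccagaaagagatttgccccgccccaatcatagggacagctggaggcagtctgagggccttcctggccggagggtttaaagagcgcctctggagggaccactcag
The ER stress response element was found in 9 of the 18 ER chaperone and ERAD promoters (Calr, Canx, Creld2, Derl3, Dnajc3, Hsp90b1, Hspa5, Pdia6 and Syvn1), in 0 of 12 ATF4 target promoters and in 0.119% of 32851 RefSeq promoters of this length. The C/EBP-ATF element was found in 5 of 12 ATF4 target promoters (Asns, Chac1, Nupr1, Slc7a11 and Trib3), in 1 of 18 chaperone and ERAD promoters (Herpud1) and in 3.97% of all. Form II was found in Dnajb11 and Herpud1 and in 0.0365% of all promoters, and the core of the UPR element in 0 of the 35 and in 0.676% of all. Herpud1 thus held a match of each kind, 1 of form II and 1 of the C/EBP-ATF element. A match is a description of the letters and not a measured binding site.

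MOG vs SHAM asked which of these genes moved with optic neuritis. Nupr1, which encodes a small stress-induced chromatin protein, was the only one of the 38 that passed the test in edgeR. Hspa5, Ddit3 and the sensor genes did not pass. Over all genes tested, 245 of 18299 passed (1.34%), 104 higher and 141 lower, so 1 of 38 is close to the background. At an unadjusted p under 0.05 there were 4 of the 38 genes (Nupr1, Ern1, Chac1 and Herpud1), where 13% of all genes were counted. The 3 libraries of each group did not overlap for 6 of the 38, 3 higher and 3 lower in MOG, against 16.2% of all genes.

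Nupr1 (ENSMUSG00000030717, chr7:126623249-126630861, minus strand) had 7.81, 7.88 and 5.77 CPM in the SHAM libraries and 11.5, 11.5 and 11.1 CPM in the MOG libraries. In GB20 the values were 9.38, 8.82 and 7.13 CPM, and in GV16 they were 7.64, 7.84 and 8.73 CPM. All 3 MOG libraries lay above each of the other 9 libraries, and the SHAM, GB20 and GV16 values overlapped. Nupr1 rose 1.59-fold in MOG vs SHAM, with a 95% interval from 1.30 to 1.95, a log2 fold change of 0.67 ± 0.14 (SE) and an adjusted p of 0.0134 (edgeR with Benjamini-Hochberg adjustment). The counts behind this were between 104 and 206 per library. The call was lost in 3 of the fits that left out a library, with edgeR adjusted p of 0.0548 without SHAM 3, 0.0695 without MOG 2 and 0.0622 without MOG 3, while Nupr1 had a log2 fold change between 0.53 and 0.75 in all 12 such fits. Nupr1 had a log2 fold change of 0.75 and an edgeR adjusted p of 0.0445 without SHAM 2, MOG 2 and GB20 2 together.

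Among the sensors, Eif2ak3 had 46.6, 44.4 and 48.4 CPM in SHAM and 49.3, 44.4 and 48.5 CPM in MOG, nearly the same range. Its log2 fold change was 0.028 ± 0.074, and that of Atf6 was 0.04 ± 0.08. Ern1, with 58.2, 50.8 and 72.2 CPM in SHAM and 63.4, 73.5 and 72.5 CPM in MOG, had a log2 fold change of 0.21 ± 0.10 and an edgeR adjusted p of 0.376 after Benjamini-Hochberg adjustment. SHAM 3 lay within the MOG range, and without it Ern1 passed the test with a log2 fold change of 0.36 and an edgeR adjusted p of 0.0376. Eif2ak4 did not overlap between the groups, at 39.7, 36.2 and 41.39 CPM in SHAM and 41.42, 43.3 and 44.4 CPM in MOG, with a log2 fold change of 0.14 ± 0.08. The gap between the groups was thus far smaller than the spread within them. The transcription factor genes pointed in opposite directions without passing the test, with log2 fold changes of -0.17 ± 0.09 for Atf4 and 0.12 ± 0.08 for Xbp1. The values were 0.07 for Ern1, -0.019 for Atf4 and 0.25 for Xbp1 without SHAM 2, MOG 2 and GB20 2, and none passed in edgeR. With 1 library left out Ern1 lay between 0.10 and 0.36, Atf4 between -0.23 and -0.07 and Xbp1 between 0.039 and 0.22.

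Of the 12 ATF4 targets, 1 passed the test, and 4 had positive and 8 negative log2 fold changes. Chac1, which encodes an enzyme that degrades glutathione, had 5.81, 5.94 and 5.83 CPM in SHAM and 5.48, 3.44 and 4.20 CPM in MOG. The SHAM libraries agreed closely and all lay above the MOG libraries, which were spread widely. Its log2 fold change of -0.42 ± 0.17 did not pass, with an edgeR adjusted p of 0.301 after Benjamini-Hochberg adjustment, and it was -0.25 without SHAM 2, MOG 2 and GB20 2. Sesn2, a regulator of mTORC1, had 27.8, 28.8 and 28.0 CPM in SHAM and 25.8, 24.2 and 25.8 CPM in MOG, with a log2 fold change of -0.16 ± 0.09. These groups did not overlap either. Ddit3, the gene of the factor CHOP that is tied to cell death, had 35.2, 48.6 and 38.4 CPM in SHAM and 42.6, 37.8 and 39.0 CPM in MOG. The SHAM values spanned all the MOG values, and the interval of its fold change was from 0.850 to 1.12. Its log2 fold change was 0.16 without SHAM 2, MOG 2 and GB20 2 and between -0.13 and 0.12 when 1 library was left out. The reads of Ddit3 may be shared in part, since 10.9% of its exon length overlaps other annotated genes and the strand setting of the counting is not given. Trib3, a pseudokinase gene induced by CHOP, had a log2 fold change of -0.13 ± 0.13, Asns, the gene of asparagine synthetase, -0.13 ± 0.09, Ddit4 -0.15 ± 0.10 and Ppp1r15a, which encodes the GADD34 subunit of an eIF2 phosphatase, 0.0033 ± 0.138. When 1 library was left out, Trib3 lay between -0.16 and -0.05, Asns between -0.21 and -0.06 and Ddit4 between -0.25 and -0.045, and without SHAM 2, MOG 2 and GB20 2 the 3 genes had -0.032, -0.039 and -0.0038. The other 4 targets, Atf5, Psat1, Phgdh and Slc7a11, lay between -0.17 and 0.18.

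Among the ER chaperones, Hspa5 (ENSMUSG00000026864, chr2:34771970-34777547, plus strand) had 196, 227 and 201 CPM in SHAM and 236, 187 and 201 CPM in MOG. The MOG range took in the SHAM range, and the fold change was 0.999 with an interval from 0.872 to 1.14, while without SHAM 2, MOG 2 and GB20 2 the log2 fold change was 0.14 with an edgeR adjusted p of 0.931. Of the 14 chaperone genes, 0 passed the test in edgeR, 0 had an unadjusted p under 0.05, and the counts were also 0 called in DESeq2 and limma-trend. Their log2 fold changes lay between -0.12 for Creld2 and 0.14 for Dnajc3, and for all 14 the interval lay within 1.5-fold in either direction. Dnajc3, which encodes the ER co-chaperone P58IPK, had 55.6, 54.0 and 57.8 CPM in SHAM and 61.2, 61.2 and 62.1 CPM in MOG. The groups did not overlap, and its log2 fold change was 0.14 ± 0.07 with an edgeR adjusted p of 0.433 after Benjamini-Hochberg adjustment. Hsp90b1 had a log2 fold change of 0.10 ± 0.07, Pdia4, a disulfide isomerase gene, -0.09 ± 0.08, Calr -0.06 ± 0.08, the BiP co-chaperone Dnajb9 -0.04 ± 0.08 and the large HSP70-like Hyou1 -0.014 ± 0.081. Leaving out 1 library moved Creld2 to between -0.23 and -0.012, Hsp90b1 to between 0.053 and 0.16, Pdia4 to between -0.12 and -0.013, Calr to between -0.14 and 0.010 and Hspa5 to between -0.10 and 0.073, and Creld2 had 0.012 without SHAM 2, MOG 2 and GB20 2. Sdf2l1 and Manf, both encoding small ER-resident proteins, had -0.022 ± 0.150 and -0.0087 ± 0.111, and Pdia3, Pdia6, Dnajb11 and Canx lay between -0.016 and 0.063. In Hsp90b1 and Manf 15.7% and 9.25% of the exon length overlaps other genes, which leaves part of their reads uncertain.

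Of the 6 ERAD genes, 0 passed in edgeR and 1 had an unadjusted p under 0.05. That gene was Herpud1 (ENSMUSG00000031770, chr8:94386438-94395377, plus strand), which encodes an ER membrane protein that recruits the degradation machinery. It had 64.8, 76.6 and 68.7 CPM in SHAM and 64.5, 50.02 and 58.7 CPM in MOG. The highest MOG library lay just below the lowest SHAM library, and MOG 2 was the lowest of all 12. The log2 fold change of Herpud1 was -0.28 ± 0.10 with an edgeR adjusted p of 0.198 after Benjamini-Hochberg adjustment. In the edgeR fit without a filter on low counts Herpud1 passed with an adjusted p of 0.0444, while without SHAM 2, MOG 2 and GB20 2 its log2 fold change was -0.11. Edem1, Syvn1, Sel1l, Derl3 and Selenos had log2 fold changes from -0.12 to 0.14, and the interval was widest for Derl3, from -0.52 to 0.81.

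**Figure D2:**
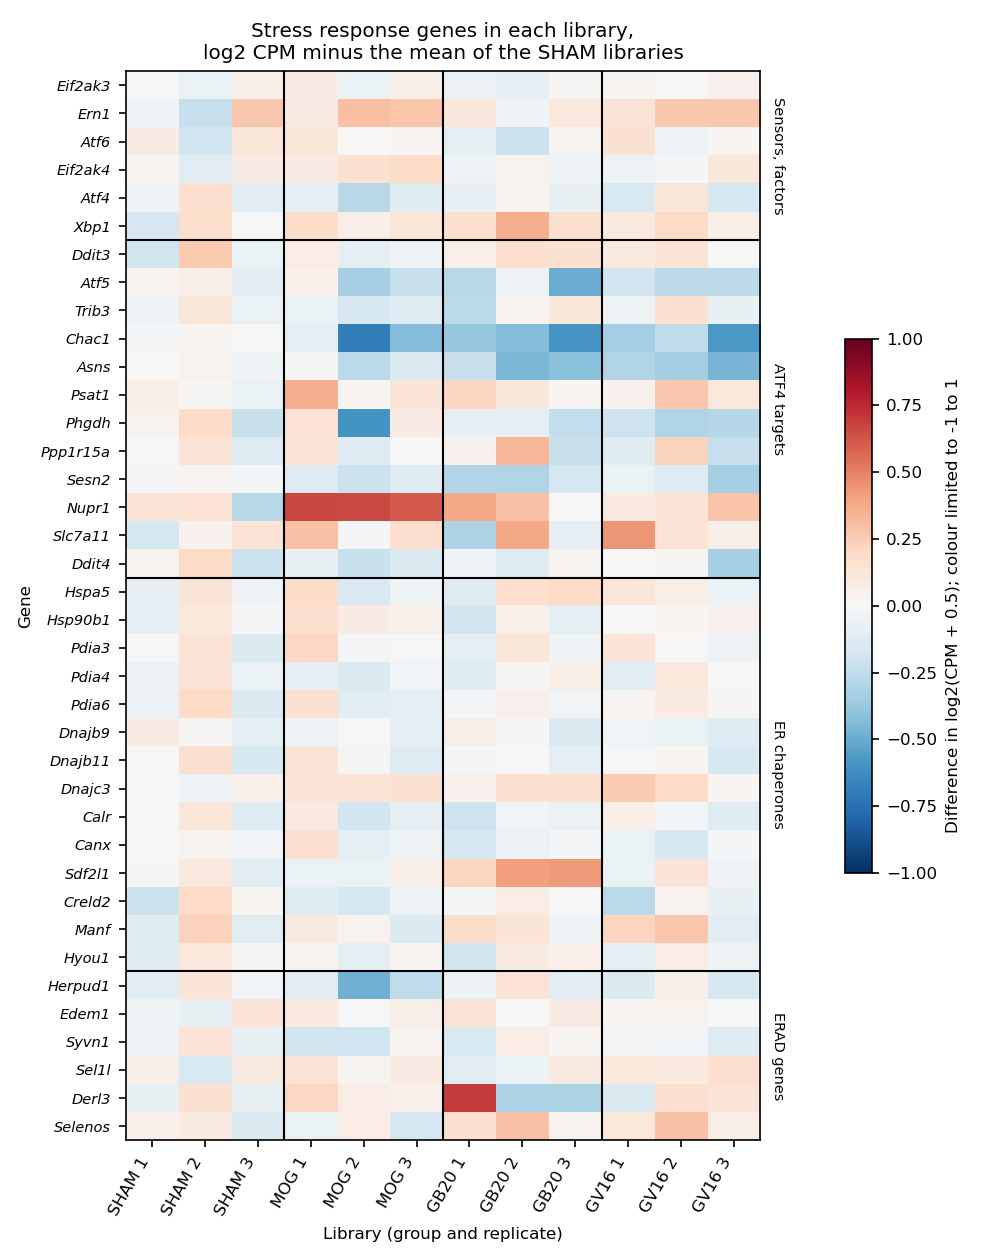
Heat map of the 38 genes (rows, by role) in the 12 libraries (columns), as log2(CPM + 0.5) minus the mean of the 3 SHAM libraries. Red is higher and blue lower. Nupr1 is high in the 3 MOG libraries, Chac1 and Herpud1 are low in MOG 2, and most chaperone rows are pale.

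GB20 vs MOG asked what needling at GB20 did in immunized mice. In edgeR 0 of the 38 genes passed, and 0 passed in DESeq2 or limma-trend. Over all genes tested 44 passed (0.24%). At an unadjusted p under 0.05 there were 6 of the 38, 3 with positive and 3 with negative log2 fold changes, against 8% of all genes. The groups did not overlap for 7 of the 38, 4 higher and 3 lower in GB20, against 15.7% of all genes.

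Sdf2l1, which encodes a BiP cofactor, had 5.09, 5.10 and 5.64 CPM in MOG and 6.28, 7.30 and 7.37 CPM in GB20, and 5.39, 5.76 and 4.94 CPM in SHAM. All 3 GB20 libraries lay above the other 9. The log2 fold change in GB20 vs MOG was 0.40 ± 0.15, and the edgeR adjusted p was 0.480 after Benjamini-Hochberg adjustment. Herpud1 had 67.0, 77.3 and 64.9 CPM in GB20, a range close to that of SHAM, with a log2 fold change of 0.27 ± 0.10 and an edgeR adjusted p of 0.456 after Benjamini-Hochberg adjustment. It was 0.09 without SHAM 2, MOG 2 and GB20 2. Creld2, an ER disulfide isomerase-like gene, had 23.3, 22.7 and 24.4 CPM in MOG and 25.0, 26.7 and 25.3 CPM in GB20, groups that lay close together without overlapping. Its log2 fold change was 0.13 ± 0.10. Atf4 was the fourth gene whose GB20 libraries all lay above the MOG libraries, at 258, 278 and 260 CPM against 255, 226 and 252 CPM, with a log2 fold change of 0.12 ± 0.09, or 0.024 without the same 3 libraries.

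On the other side, Nupr1 had a log2 fold change of -0.43 ± 0.14 in GB20 vs MOG, with an unadjusted p of 0.00557 and an edgeR adjusted p of 0.396 after Benjamini-Hochberg adjustment. Hsp90b1 had 321, 301 and 296 CPM in MOG and 252, 295 and 267 CPM in GB20. The highest GB20 library was just under the lowest MOG library, and the log2 fold change was -0.17 ± 0.07 with an edgeR adjusted p of 0.565. Eif2ak4 had -0.16 ± 0.08, and its groups did not overlap. Asns had 44.0, 36.2 and 39.4 CPM in MOG and 37.2, 31.7 and 32.7 CPM in GB20, which overlap only through MOG 2 and GB20 1, with a log2 fold change of -0.23 ± 0.09. The ERAD gene Selenos, with a log2 fold change of 0.22 ± 0.10, completed the 6 genes with an unadjusted p under 0.05. Hspa5 had 191, 233 and 239 CPM and Ddit3 had 41.8, 45.4 and 45.01 CPM in GB20. Their log2 fold changes were 0.09 ± 0.09 and 0.14 ± 0.10, and for both genes the libraries overlapped with those of MOG. With 1 library left out, Hspa5 lay between 0.016 and 0.19 and Ddit3 between 0.11 and 0.20. Their lowest values under all the alternatives listed below were -0.029 and 0.079.

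**Figure D3:**
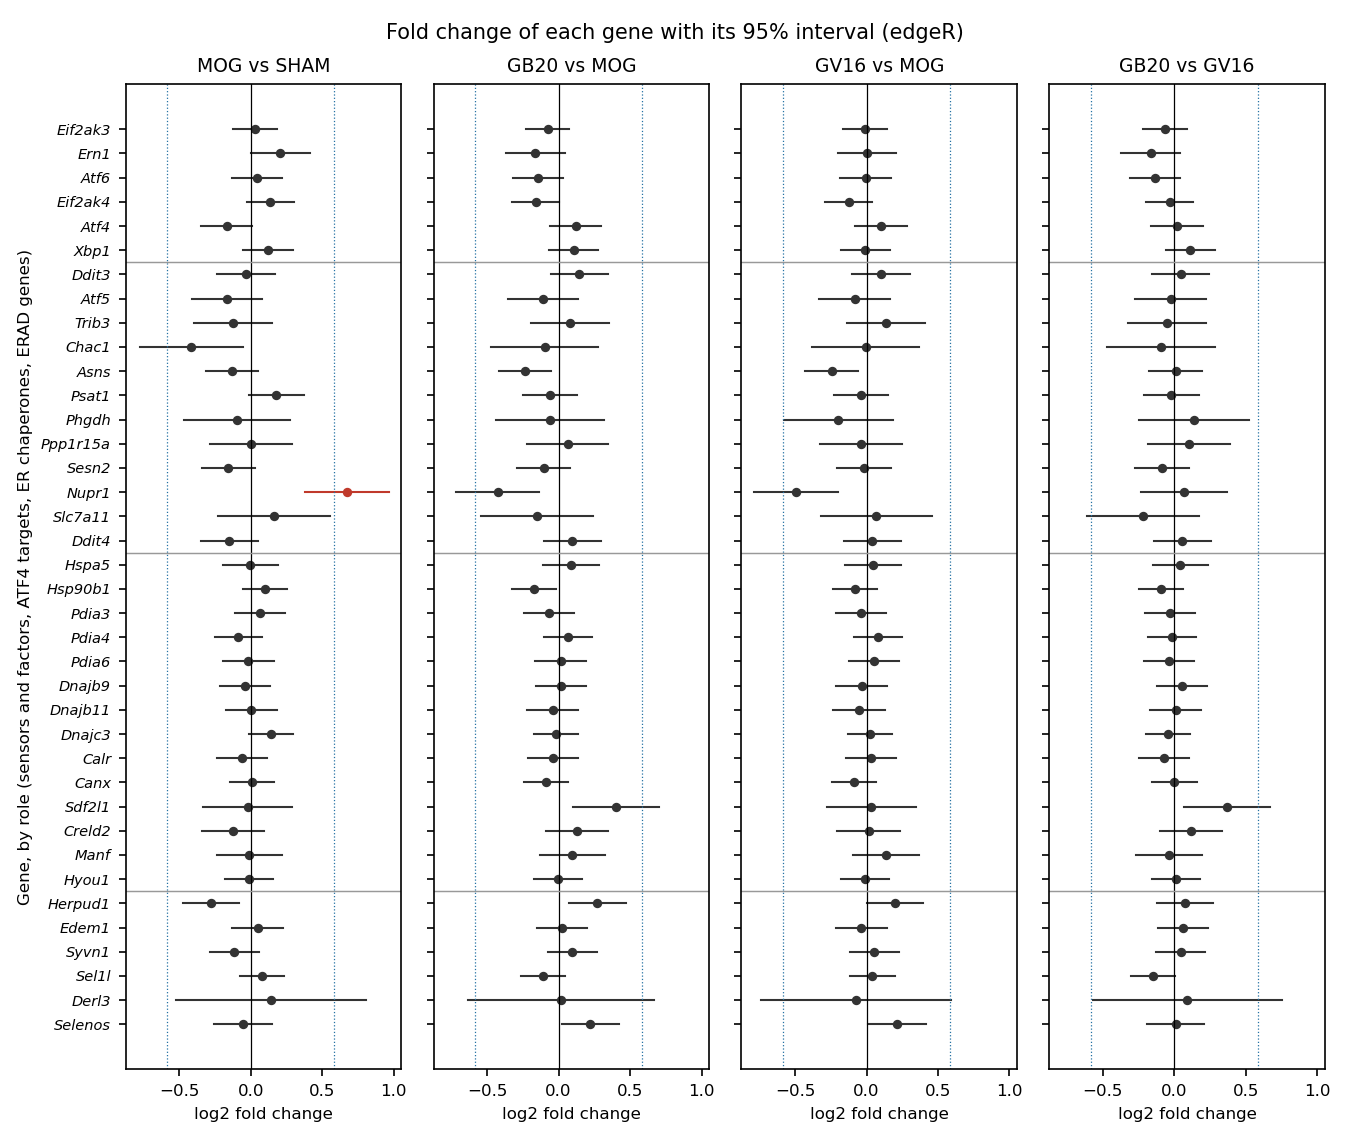
Log2 fold change (x axis) of each of the 38 genes in the 4 comparisons, with points at the edgeR estimate. Bars show the 95% interval computed from the edgeR test (3 vs 3 libraries, spread shared over 12). Dotted lines mark 1.5-fold in either direction, and the 1 gene that passed the adjusted test, Nupr1 in MOG vs SHAM, is red.

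GV16 vs MOG asked the same of the control site. In edgeR 0 of the 38 genes passed, as in DESeq2 and limma-trend, while 30 of all genes passed (0.164%). At an unadjusted p under 0.05 there were 4 of the 38 (Nupr1, Asns, Herpud1 and Selenos), against 5.3% of all genes, and the groups did not overlap for 3, against 12.6%. These 3 were all lower in GV16. Nupr1 had a log2 fold change of -0.49 ± 0.14 with an unadjusted p of 0.00196 and an edgeR adjusted p of 0.379 after Benjamini-Hochberg adjustment. Asns, at 35.4, 34.2 and 31.5 CPM in GV16, had -0.24 ± 0.09, and Hsp90b1, at 286, 289 and 293 CPM, had -0.08 ± 0.07. The Hsp90b1 libraries of GV16 were the most alike of any group. Herpud1, at 63.6, 72.8 and 62.5 CPM, had a log2 fold change of 0.20 ± 0.10, or 0.10 without MOG 2 and the other 2 libraries, and its groups overlapped. Since both needled groups were compared with the same MOG libraries, their values share that reference and are set side by side without a count of shared directions.

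GB20 vs GV16 compared the needling sites with each other. In edgeR 0 of the 38 genes passed, as in DESeq2 and limma-trend, and 1 of all genes did (0.00546%). At an unadjusted p under 0.05 there was 1 of the 38, Sdf2l1, against 2.93% of all genes. The groups did not overlap for 3 of the 38, against 8.34% of all genes. Sdf2l1 had 5.09, 5.91 and 5.20 CPM in GV16, all below the GB20 libraries, with a log2 fold change of 0.37 ± 0.15 and an edgeR adjusted p of 0.9999 after Benjamini-Hochberg adjustment. Ern1, at 64.5, 58.2 and 64.2 CPM in GB20 and 65.6, 72.3 and 72.0 CPM in GV16, had -0.17 ± 0.10. Sel1l, which encodes the partner of the ERAD ligase SYVN1, had 124, 128 and 143 CPM in GB20 and 144.1, 143.5 and 150 CPM in GV16, with -0.15 ± 0.08. In both genes the nearest libraries of the groups lay close together. For Nupr1 the log2 fold change was 0.07 ± 0.14, with an interval from -0.23 to 0.37.

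**Figure D4:**
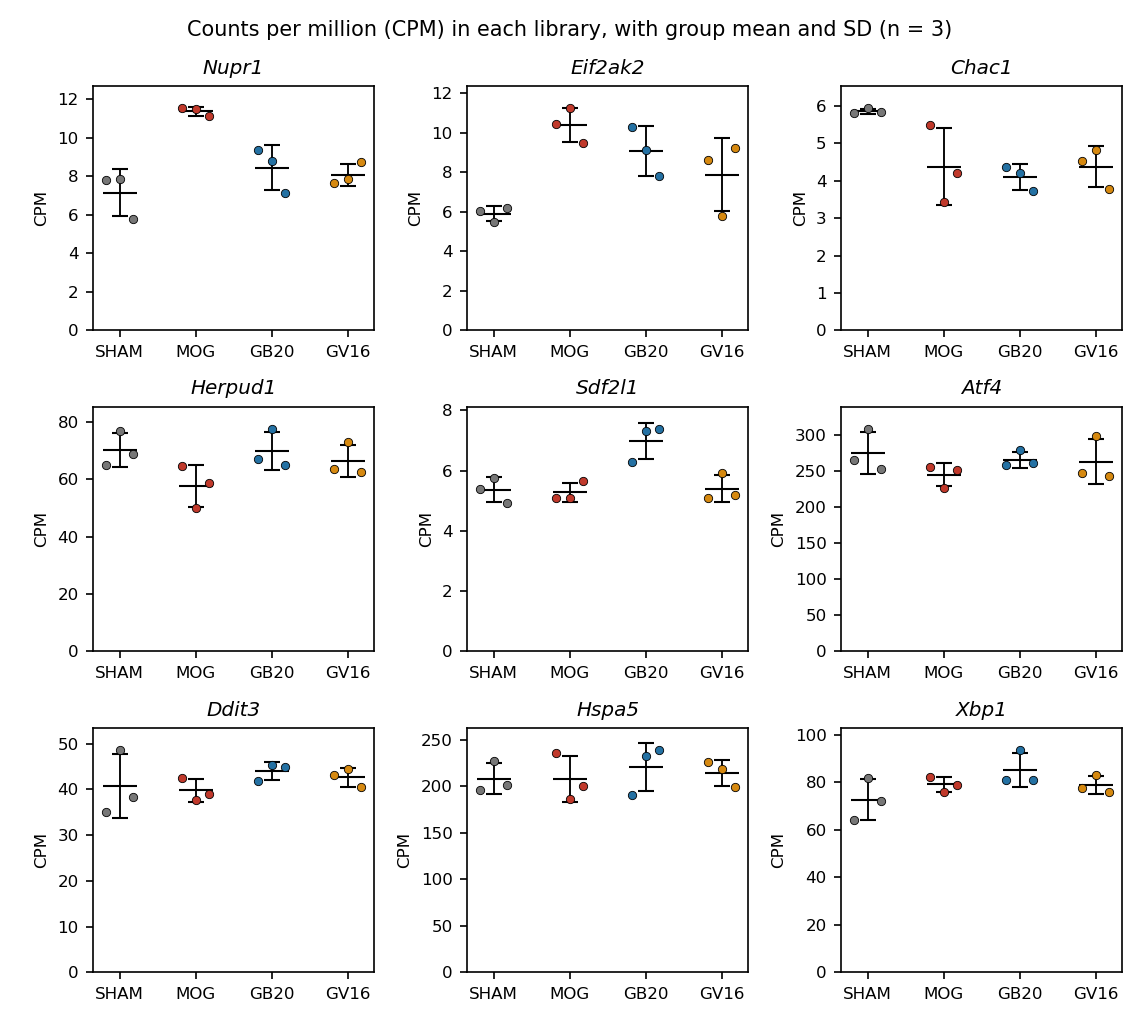
CPM of 9 stress genes in each library (points, y axis from 0), with the group mean and SD (n = 3). Nupr1 and the kinase gene Eif2ak2 are higher in MOG than in SHAM, Sdf2l1 is highest in GB20, and the points of Ddit3 and Hspa5 overlap between the groups.

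The intervals bounded the size of the changes. In MOG vs SHAM the 95% interval lay within 1.5-fold in either direction for 35 of the 38 genes (92.1%), against 65.6% of all genes tested. The other 3 were Nupr1, Chac1 and Derl3. The interval lay within those bounds for 35 of the 38 in GB20 vs MOG, for 36 in GV16 vs MOG and for 35 in GB20 vs GV16. Over all genes tested the shares in these comparisons were 67.4%, 68.2% and 69.4%. Outside them were Nupr1, Sdf2l1 and Derl3 in GB20 vs MOG, Nupr1 and Derl3 in GV16 vs MOG, and Sdf2l1, Slc7a11 and Derl3 in GB20 vs GV16. The median half-width was 0.18 log2 units for the 38 genes in MOG vs SHAM and 0.25 for all genes.

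The PERK and ATF4 branch was then set against the ATF6 and XBP1 branch. In MOG vs SHAM the median log2 fold change was -0.11 over the 12 ATF4 targets, -0.011 over the 14 ER chaperones, -0.0022 over the 6 ERAD genes and 0.08 over the 6 sensors and factors, beside -0.0023 over all genes tested. The ATF4 median minus that of the 20 ER chaperones and ERAD genes was -0.10. In GB20 vs MOG the ATF4 targets had a median of -0.08 and the 20 chaperone and ERAD genes 0.017, a difference of -0.10. In GV16 vs MOG the medians were -0.027 and 0.025, and in GB20 vs GV16 they were -0.0056 and 0.0091, with differences of -0.05 and -0.015. Over all genes tested the medians of these 3 comparisons were 0.00084, 0.0024 and 0.00097. Without SHAM 2, MOG 2 and GB20 2 the difference was -0.0055 in MOG vs SHAM, -0.20 in GB20 vs MOG, -0.10 in GV16 vs MOG and -0.014 in GB20 vs GV16. Over the mean log2 CPM of each list, the ATF4 targets stood above the chaperone and ERAD genes by 0.08, 0.07 and 0.02 in SHAM, by 0.12, -0.05 and 0.07 in MOG, by -0.05, -0.02 and -0.11 in GB20 and by 0.00006, -0.03 and -0.08 in GV16, each relative to the mean over the 12 libraries. The SHAM and MOG libraries overlapped, MOG 2 being the lowest of those 6, while all 3 SHAM libraries lay above all 6 libraries of the needled groups, as did MOG 1 and MOG 3. The group means were 0.056 in SHAM, 0.043 in MOG, -0.060 in GB20 and -0.039 in GV16. By these means SHAM and MOG lay close together, unlike the medians of the fold changes in MOG vs SHAM. The SD between libraries was 0.034 in SHAM, 0.086 in MOG, 0.046 in GB20 and 0.042 in GV16. The sign of the GB20 vs MOG difference changed without MOG 1, to 0.011, and that of GV16 vs MOG changed without MOG 1, to 0.036, and without GV16 3, to 0.017.

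**Figure D5:**
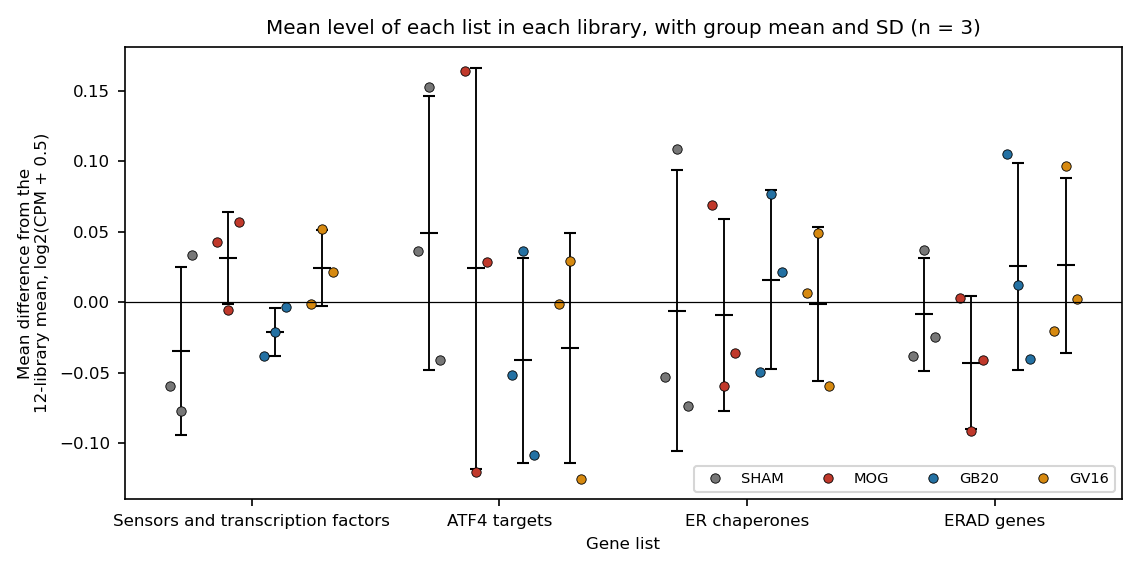
Mean log2(CPM + 0.5) of each gene list in each library minus its mean over the 12 libraries (points), with the group mean and SD (n = 3). The groups overlap in every list, except that the sensors and factors of GB20 reach up to -0.0035 and those of GV16 start at -0.0015, and the ATF4 targets of MOG 1 and MOG 2 lie farther apart than the group means do.

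Within groups, the ER chaperones and the ATF4 targets varied together from library to library. After removal of the group means, the median pairwise correlation over the 12 libraries was 0.392 among the 14 ER chaperones (91 pairs) and 0.375 among the 11 ATF4 targets with a mean of at least 5 CPM (55 pairs), against -0.00119 over all pairs of the 12277 genes at that level. With the trend on gene length removed from each library, the medians were 0.388, 0.286 and 0.0203. Among the 6 sensors and factors the median was -0.253, or -0.028 with that trend removed, and among 5 ERAD genes it was -0.138, or 0.077 with the trend removed. The ER chaperones were highest in SHAM 2, MOG 1 and GB20 2, by 0.11, 0.07 and 0.08 log2 units over the mean of the 12 libraries, so this shared variation ran across the groups. SHAM 2 and GB20 2 are the libraries with lens signal, and SHAM 2 has the steepest trend with length. The median correlation without SHAM 2, MOG 2 and GB20 2 was 0.246 among the ER chaperones, 0.274 among the ATF4 targets and 0.00038 over all pairs, and with the trend removed as well 0.356, 0.196 and 0.0147. For the sensors and the ERAD genes the values without these libraries were 0.00098 and -0.180, and with the trend removed as well 0.057 and 0.034. All these genes were read from the same 12 libraries, whose depth and composition they share, and the correlations are given as a description without a test.

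Other genes of the pathways were read from 4 lists of 109 genes, of which 108 were tested, the hormone gene Fgf21 being below the filter. In MOG vs SHAM 1 passed the test, 9 (8.33%) had an unadjusted p under 0.05, against 13% of all genes, and the median log2 fold change was -0.06. In each of the other 3 comparisons 0 passed in edgeR, DESeq2 or limma-trend, with 6 (5.56%) at an unadjusted p under 0.05 in either needled group vs MOG, against 8% and 5.3% of all genes, and 0 in GB20 vs GV16, against 2.93%. The gene that passed was Eif2ak2 (ENSMUSG00000024079, chr17:78852564-78882573, minus strand), which encodes the eIF2 kinase PKR and is known to be induced by interferon. Eif2ak2 had 6.05, 5.47 and 6.21 CPM in SHAM, 10.5, 11.2 and 9.49 CPM in MOG, 10.3, 9.12 and 7.80 CPM in GB20 and 8.63, 5.79 and 9.23 CPM in GV16. The MOG libraries all lay above SHAM, and GV16 2 lay at the SHAM level. Eif2ak2 rose 1.76-fold in MOG vs SHAM, with a log2 fold change of 0.81 ± 0.16 and an edgeR adjusted p of 0.00795 after Benjamini-Hochberg adjustment. Eif2ak2 no longer passed without MOG 2 (log2 fold change of 0.76, edgeR adjusted p of 0.0637), in limma-trend on log2(FPKM + 1) (0.49, adjusted p of 0.0703) and on log2(FPKM + 0.1) (0.76, adjusted p of 0.0775), and without SHAM 2, MOG 2 and GB20 2 (0.71, edgeR adjusted p of 0.125). Eif2ak1, the gene of the heme-regulated eIF2 kinase, had a log2 fold change of -0.05 ± 0.08 in MOG vs SHAM, and the median over the 11 genes of eIF2 kinases and eIF2 machinery was -0.05.

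By list, the 30 tested of 31 genes of the wider integrated stress response, such as amino acid transporters and tRNA synthetases, had 0 calls in edgeR and 4 genes (13.3%) with an unadjusted p under 0.05 in MOG vs SHAM, against 13% of all genes. These 4 had negative log2 fold changes, and the median of the list was -0.07. The 57 genes of wider ER folding, translocation and ERAD had 0 calls, 3 such genes (5.26%) and a median of -0.04. The 10 mitochondrial chaperones and proteases had 0 calls, 1 such gene (10%) and a median of -0.11. In DESeq2 and limma-trend these 3 lists also had 0 calls in MOG vs SHAM.

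Markers of some cell types moved with MOG vs SHAM at the same time. Of the 6 rod photoreceptor markers 0 passed in edgeR, and their median log2 fold change was -0.056. At an unadjusted p under 0.05 there were 0 of these 6, against 13% of all genes. The marker lists were chosen with earlier results of these data known. The paper reports Pou4f1, Isl2 and Sncg as lowered and Gfap and Fgf2 as raised in MOG. The counts of markers that fell or rose therefore describe the lists and are no independent result. Over all genes tested 1.34% passed in MOG vs SHAM. All 6 retinal ganglion cell markers, with Nefl the most abundant and none at 0, fell in edgeR, with a median log2 fold change of -0.93. They summed to 518, 496 and 458 CPM in SHAM, 298, 256 and 251 CPM in MOG, 321, 310 and 318 CPM in GB20 and 350, 281 and 236 CPM in GV16. All 5 reactive glia markers, led by Fgf2 and with none at 0, rose with a median of 1.36, and they summed to 70.5, 82.3 and 70.2 CPM in SHAM, 172, 189 and 212 CPM in MOG, 174, 160 and 132 CPM in GB20 and 131, 113 and 158 CPM in GV16. Of the 6 microglia and macrophage markers 2 rose, and the list, led by Ctss, summed to 22.0, 24.3 and 17.0 CPM in SHAM, 33.0, 34.0 and 38.01 CPM in MOG, 40.6, 31.5 and 29.1 CPM in GB20 and 37.5, 35.1 and 32.4 CPM in GV16. In GB20 vs MOG 1 of the 5 reactive glia markers fell (Osmr), and in GV16 vs MOG 2 fell (Osmr and Fgf2). Of the 5 Muller glia markers Aqp4 rose in MOG vs SHAM and fell in both needled groups vs MOG, while 3 had negative log2 fold changes in MOG vs SHAM and the list median was -0.09. Led by Glul and with none at 0, these markers summed to 2911, 2851 and 2732 CPM in SHAM, 2673, 2372 and 2440 CPM in MOG, 2580, 2705 and 2792 CPM in GB20 and 2850, 2672 and 2746 CPM in GV16, so that the sums of MOG lay below those of SHAM. Glul itself had log2 fold changes of -0.26 ± 0.08 in MOG vs SHAM, 0.18 ± 0.08 in GB20 vs MOG and 0.25 ± 0.08 in GV16 vs MOG and did not pass in edgeR. In MOG vs SHAM 0 of the tested markers of pigment epithelium (4), oligodendrocytes (3), red blood cells (3) and endothelium (4) passed in edgeR, with 2, 0, 0 and 0 at an unadjusted p under 0.05. Over all genes tested the share at that threshold was 13%. The 4 endothelium markers summed to 189, 154 and 151 CPM in SHAM and 181, 173 and 187 CPM in MOG. Their sums were 160, 158 and 165 CPM in GB20 and 164, 131 and 145 CPM in GV16, all below those of MOG. At an unadjusted p under 0.05 in edgeR, 2 of the 4 were lower in GB20 vs MOG and 3 in GV16 vs MOG. Over all genes these shares were 8% and 5.3%, and 0 endothelium markers passed in either comparison. The 5 pigment epithelium markers were led by Rgr. None of these was at 0 in every library, while Mlana was at 0 in SHAM 1, SHAM 2 and MOG 1. The pigment epithelium markers summed to 8.23, 10.8 and 8.71 CPM in SHAM and 16.9, 26.4 and 15.5 CPM in MOG. In GB20 the sums were 16.6, 20.9 and 16.7 CPM, and in GV16 they were 9.38, 31.4 and 17.8 CPM. SHAM and MOG did not overlap, and GV16 2 was the highest of the 12 libraries. The T cell markers Cd3e, Cd3d, Cd4 and Cd8a were under 1 CPM on average and were not tested. The part of these cell types in the rise of Nupr1 and Eif2ak2 was not tested, and in bulk RNA fewer cells of a type and less RNA per cell cannot be told apart.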

How the data were processed

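Retinal poly(A) RNA had been sequenced in 12 libraries, and group and replicate number were taken from the labels. The authors aligned reads with HISAT2 2.0.5, to mm10 per the submitters' processing notes, and deposited whole-number counts per gene from FeatureCounts. The authors also deposited FPKM values, which they computed from the same counts and gene length. Strand setting, annotation release and the handling of multi-mapped reads are not given in the text used here. Symbols, positions and exon overlaps came from GENCODE on GRCm38, and promoters from RefSeq. Of 2 identifiers with the symbol Ddit3, the one with counts was used. The 38 genes and all lists were chosen with earlier results of these data known.

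The test on counts was that of edgeR 4.0.16 under R 4.3.3 (quasi-likelihood test, expression filter by group, TMM scaling, 1 mean per group over 12 libraries, no block), with Benjamini-Hochberg adjustment over 18299 genes and a threshold of 0.05. The test was run on simulated data first. Lists were described by counts and medians, with no test. Values were given for genes that passed, for the 3 highest and 3 lowest fold changes among genes whose groups did not overlap, and for 24 core sensors, factors, targets and chaperones. Of the other pathway genes that were tested, those that passed were named, and Eif2ak1 was named beside Eif2ak2 as an eIF2 kinase gene. Alternatives were DESeq2 1.42.0, limma 3.58.1 on log2(FPKM + 1) or log2(FPKM + 0.1), other size factors, no filter, removal of the trend on gene length, a block on replicate number and leaving out libraries. Figures were drawn with matplotlib 3.10.9. FPKM was used for levels between genes and CPM for levels between libraries.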

Additional observations from a re-analysis of the deposited data

How the results depend on the processing

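Under the 22 alternatives, 1 of which (the 3 libraries left out together) was added after the data had been seen, the number of the 38 genes that passed in MOG vs SHAM was 1 in 19, while the edgeR fit without a filter on low counts gave 2 (Nupr1 and Herpud1). Leaving out 1 library gave between 0 and 1 genes, with 0 without MOG 2 and without MOG 3, and without SHAM 3 the gene that passed was Ern1 in place of Nupr1. In the other 3 comparisons 0 genes passed under all 22. Over all genes the number that passed was 245 in MOG vs SHAM and between 91 and 539 under the alternatives, with 539 without the filter, where more genes of low counts entered the fit. The same ranges were 13 to 140 beside 44 in GB20 vs MOG, 5 to 73 beside 30 in GV16 vs MOG, and 0 to 8 beside 1 in GB20 vs GV16. The block on replicate number gave 404, 73, 47 and 1 genes over all and 1, 0, 0 and 0 of the 38. In the 4 comparisons the same-numbered libraries did not deviate together in every pair, with correlations from -0.134 to 0.333 over 12277 genes, so the numbers were not taken as pairs in the main fit. Between SHAM and GB20 the correlations were 0.182, 0.484 and 0.443 and between SHAM and GV16 0.186, 0.259 and 0.249, so a shared repeat of the experiment, of which the methods mention 3 without a tie to the numbers, cannot be told apart from other variation. The difference between the medians of the ATF4 targets and of the chaperone and ERAD genes lay between -0.14 and -0.045 in MOG vs SHAM when 1 library was left out, between -0.16 and 0.011 in GB20 vs MOG, between -0.10 and 0.036 in GV16 vs MOG, and between -0.031 and 0.022 in GB20 vs GV16. Without SHAM 2, MOG 2 and GB20 2 together it was -0.0055 in MOG vs SHAM and -0.20 in GB20 vs MOG, and the cause was not tested. Of 2376 values of named genes under the alternatives, 2367 stayed on their side of the threshold, 7 lost and 2 gained a call, and 0 reversed as a call, while 127 small values changed sign without a call. With 3 libraries in each group, genes at low counts such as Derl3 had wide intervals.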
